A study of Sus scrofa with 20 samples.

Results

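The transcription factors that set up and keep the hepatocyte programme were examined in backfat and liver of the Nanchukmacdon pig. They are HNF4A, ONECUT1, ONECUT2, PROX1, GATA4, GATA6, CREB3L3 and HHEX, taken from a list of symbols and matched by Ensembl identifier to 8 of the 31907 genes of the count table. RNA from both tissues of 5 boars was sequenced in 10 libraries, 5 of each tissue. The animals were labelled wild type and 22 months old, the study's methods give another average age, and no treatment is named. Each library came from bulk tissue, so fewer cells of a type and less RNA per cell cannot be told apart. Libraries are named by tissue and boar number (65, 67, 69, 71 and 72). Levels of single genes are given as CPM, counts scaled to the library total after TMM normalisation. Log2 fold changes are given with their standard error (SE). Markers of cell types are the exception: their CPM are without TMM, except where given as percent of the liver mean.

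Hepatocytes are specified from the foregut endoderm by a network of transcription factors that bind each other's regulatory regions. HNF4A is the nuclear receptor at the centre of this network in the adult liver, while HHEX, PROX1, the GATA factors and the ONECUT factors act early in the growth of the liver bud and stay on in the adult organ. CREB3L3, a membrane-bound factor of the endoplasmic reticulum that is released by proteolysis, is expressed in liver and intestine and drives genes of lipoprotein metabolism and of the acute phase.

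The 250 bases before the gene start of 3 of the factors are shown because they include the factor with the highest level in backfat and both ends of the CpG content among the 8 genes. They were read from the reference Sscrofa11.1 with the gene starts of its RefSeq annotation: HNF4A at chr17:46783522-46783771 on the plus strand, CREB3L3 at chr2:74588270-74588519 on the minus strand and HHEX at chr14:104194174-104194423 on the plus strand. Capitals mark matches on either strand to the GATA core AGATAA or the ONECUT core ATTGAT.
HNF4A: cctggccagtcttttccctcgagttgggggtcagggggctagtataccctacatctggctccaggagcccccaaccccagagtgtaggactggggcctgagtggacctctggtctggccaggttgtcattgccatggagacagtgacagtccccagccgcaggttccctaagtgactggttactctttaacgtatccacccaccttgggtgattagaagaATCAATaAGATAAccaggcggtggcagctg
CREB3L3: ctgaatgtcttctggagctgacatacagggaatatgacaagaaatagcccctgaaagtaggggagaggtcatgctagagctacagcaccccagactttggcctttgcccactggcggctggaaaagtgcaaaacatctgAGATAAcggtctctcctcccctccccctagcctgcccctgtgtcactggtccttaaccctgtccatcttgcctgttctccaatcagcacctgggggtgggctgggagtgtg
HHEX: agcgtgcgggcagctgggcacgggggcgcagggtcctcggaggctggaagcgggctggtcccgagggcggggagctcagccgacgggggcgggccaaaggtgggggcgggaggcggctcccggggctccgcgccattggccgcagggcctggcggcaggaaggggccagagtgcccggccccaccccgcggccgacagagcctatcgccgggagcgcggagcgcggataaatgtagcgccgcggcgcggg
In the HNF4A window an ONECUT core, read on the opposite strand, begins 30 bases before the start, and a GATA core follows it at 23 bases before the start, with 1 base between them. A GATA core lies 111 bases before the start of CREB3L3 and 205 bases before that of PROX1, and GATA4 holds it at 73 and 57 bases before its own start. The GATA core was thus found in 4 of the 8 windows, and in 8.08% of the 19556 windows read for all protein-coding genes. These 4 windows were the lowest of the 8 in GC content, at 42.0% to 56.4%, against 62.8% to 78.4% in the others. The median over all windows was 57.6%, and the part of base composition in these matches was not tested. The ONECUT core was found in 1 of the 8 windows and in 4.79% of all. No match was found in the 8 windows to CAAAGTCCA for HNF4 (0.317% of all windows) or TGACGTG for CREB3 factors (1.47%), which says only that these letters are not in these windows. None of these motifs overlapped another in the windows shown.

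The windows also differed in their CpG dinucleotides, the sites of DNA methylation in mammals. The CREB3L3 and GATA4 windows held 2 CpG each and the HNF4A window 4, against a median of 12 over all windows (quartiles 4 and 22). HHEX held 33, more than 91.3% of all windows, ONECUT1 held 24 and GATA6 held 21. The ONECUT2 window held 16 and the PROX1 window 14. HHEX and GATA6, the factors with the highest levels in backfat, had 33 and 21 CpG, and ONECUT1, with almost no reads in backfat, lay between them. HNF4A, PROX1, CREB3L3 and others have several annotated transcripts, and a gene start taken from the annotation need not be the start used in these tissues.

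Between 43820042 and 61772737 read pairs were counted per library, and 16275 genes had enough counts to be tested. The tissue labels were checked with marker genes, alone or summed, in CPM of all counts without TMM. TMM factors were 1.18 to 1.44 in backfat and 0.649 to 0.916 in liver. TMM would thus lower these marker levels in backfat and raise them in liver. Adipocyte markers (6 of 6 found) came to 11053 CPM or more in each backfat library and to 11.3 CPM or less in each liver library. Hepatocyte markers (7 of 8 found) came to between 20906 and 104490 CPM in liver. A pair of libraries stood apart. Backfat 69 held 163 CPM of hepatocyte markers, against 3.39 to 4.68 CPM in the other backfat libraries, and liver 67 held the lowest sum of hepatocyte markers among the livers and 44.5% mitochondrial counts, against 6.38% to 20.2% elsewhere. Backfat 69 was also the highest backfat library for smooth muscle markers (5 of 5 found), at 247 CPM against 109 to 118 CPM, and for hepatic stellate markers (4 of 4 found, DES in both lists), at 79.7 CPM against 22.0 to 49.6 CPM. The stellate sum there was mostly DES (42.9 CPM) and HGF (36.1 CPM). LRAT (0.186 CPM) and COLEC11 (0.557 CPM) were both higher in backfat 72, at 0.203 and 0.750 CPM. Of the smooth muscle markers, MYH11 (136 CPM) made up most of the sum in backfat 69, and ACTG2 and DES were also highest there. CNN1 was higher in backfat 67, at 33.6 against 29.2 CPM, and LMOD1 in backfats 65, 67 and 72. Liver 67 held 97.4 CPM of skeletal muscle markers (2 of 5 found), against 0.958 CPM at most in the other livers, and the highest liver sums of smooth muscle (91.2 CPM), bile duct (52.4 CPM, 4 of 5 found) and pancreas markers (34.5 CPM, 6 of 6 found). Its bile duct sum was mostly KRT7, at 32.2 CPM against 7.03 to 11.5 CPM. SOX9 was also highest there, at 6.94 CPM, but EPCAM was higher in liver 72 and CFTR in liver 65. Of the smooth muscle markers, ACTG2 was higher in livers 65 and 69 than in liver 67. The pancreas sum was nearly as high in liver 71, at 29.4 CPM. The part of such cells in the levels of these libraries was not tested. Results that rest on these libraries are given with and without them.

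Of the 8 factors, 7 were called higher in liver and none higher in backfat, with an FDR no higher than 0.05 and at least 2 on the log2 scale between the tissues, by edgeR's quasi-likelihood test. Over all genes tested 11.2% were called higher in liver. In these same 7 genes every liver library lay above every backfat library, which held for 19.7% of all genes tested, and ranges apart in either direction for 42.6%. HHEX was the exception to both. Only GATA6 and HHEX would have passed the filter on low counts in both tissues, and the other 6 passed through liver alone, so that for them a difference between the tissues was bound to appear. The plot of the 8 factors by library shows the spread of levels within each tissue.

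**Figure D1:**
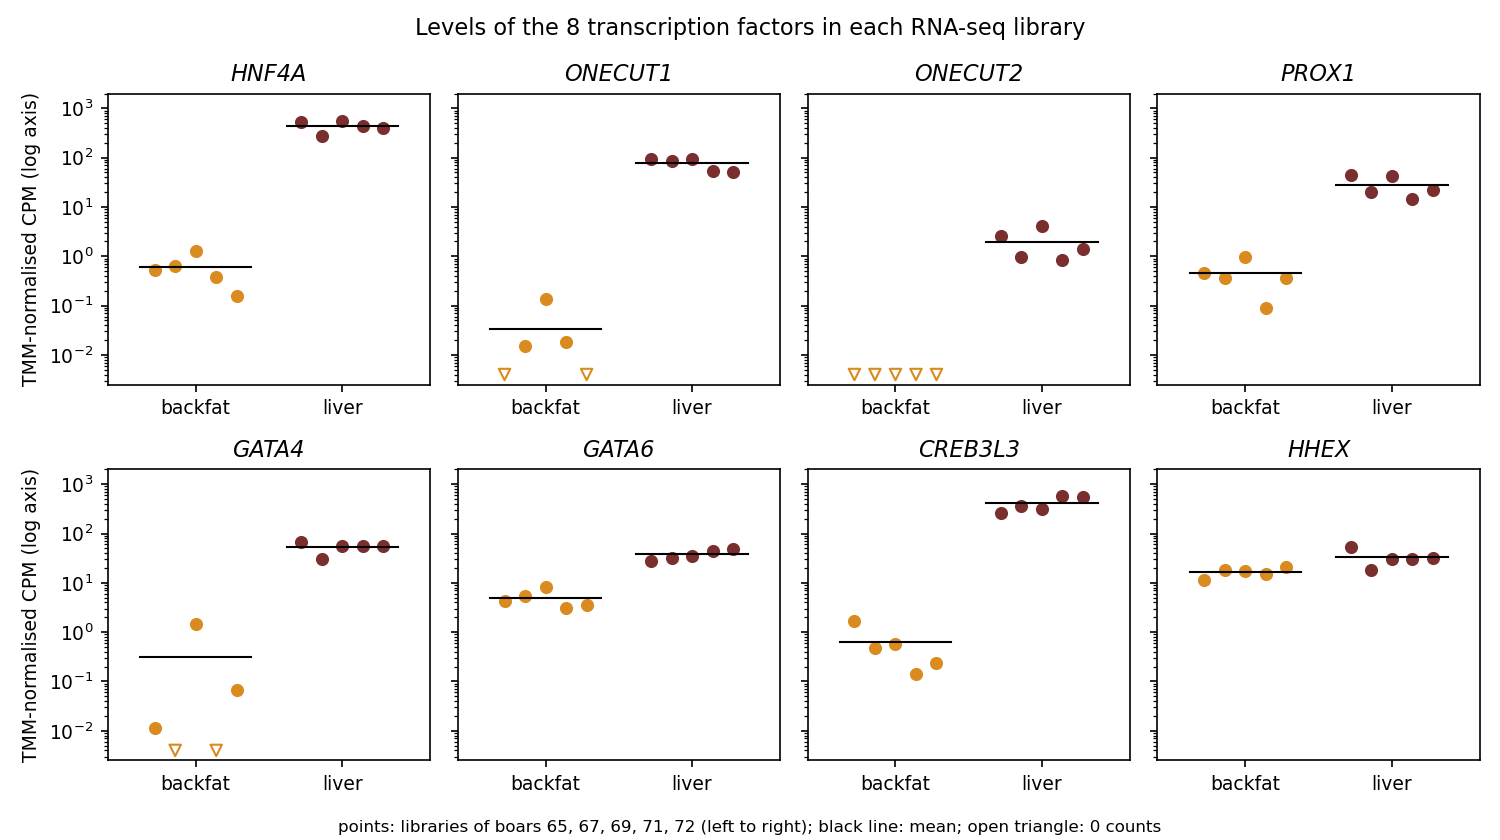
Levels of the 8 factors in TMM-normalised CPM on a log axis, 1 point per library in the order of boars 65, 67, 69, 71 and 72, with the mean of 5 libraries as a black line and open triangles for 0 counts. The tissues are apart in 7 panels, while for HHEX liver 67 at 18.0 CPM lies within the backfat range of 11.5 to 21.1 CPM.

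HNF4A (ENSSSCG00000007371, chr17:46783772-46847505, plus strand) codes for the nuclear receptor that binds the promoters and enhancers of many genes of plasma proteins, lipoproteins and gluconeogenesis. In backfat it was at 0.519, 0.641, 1.28, 0.378 and 0.154 CPM in boars 65, 67, 69, 71 and 72, and in liver at 536, 277, 544, 432 and 403 CPM in the same order. The liver libraries lay within a 1.96-fold range of each other with liver 67 the lowest, and backfat 69 was the highest of the backfat libraries. Backfat averaged 0.594 ± 0.423 CPM (SD, n = 5) and liver 438.5 ± 109 CPM (SD, n = 5), and the log2 fold change was -9.52 (SE 0.57, FDR = 4.71e-08). Without backfat 69 and liver 67 it was -10.12. A long non-coding RNA gene lies across part of HNF4A on the opposite strand in the RefSeq annotation, and the counts do not separate strands.

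ONECUT1 (ENSSSCG00000004616, chr1:118913400-118958140, plus strand), also known as HNF6, and ONECUT2 (ENSSSCG00000004540, chr1:106751346-106812484, plus strand) are homeodomain factors that work together in hepatocyte and bile duct development. ONECUT1 had 0, 1, 8, 1 and 0 counts in the backfat libraries of boars 65, 67, 69, 71 and 72, and 92.7, 87.3, 95.8, 54.7 and 51.3 CPM in the livers. Most of its few backfat reads were in backfat 69, and no liver library came near the backfat range. Its log2 fold change was -11.16 (SE 0.62, FDR = 3.05e-08), and -12.90 without backfat 69. Only 2 backfat counts remain in that fit, for a ratio of liver to backfat of 10490 with an exact 95% counting interval of 2903 to 86610.

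ONECUT2 had 0 counts in all 5 backfat libraries and 101, 36, 198, 26 and 51 counts in the liver libraries in the same order, or 2.52, 0.972, 4.20, 0.821 and 1.38 CPM. It was the scarcest of the 8 in liver and the most uneven, with a 5.12-fold range between liver 71 and liver 69. ONECUT2 was at least 233-fold higher in liver, if 3 counts over the whole tissue are taken as the limit behind a count of 0 (FDR = 4.35e-05). The bound includes only the error of counting.

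PROX1 (ENSSSCG00000015584, chr9:129527704-129583693, minus strand) is the homeobox factor of hepatoblast migration, and it is also the master regulator of lymphatic endothelium. Its levels were 0.462, 0.366, 0.976, 0.0901 and 0.360 CPM in backfat and 44.2, 20.2, 41.5, 14.4 and 22.1 CPM in liver, in the order of boars 65, 67, 69, 71 and 72. Both tissues were spread widely, with livers 65 and 69 at the top of liver and backfat 69 at the top of backfat, but the ranges did not overlap. The log2 fold change was -5.97 (SE 0.55, FDR = 1.65e-06), and -6.54 without backfat 69 and liver 67. Markers of lymphatic endothelium (5 of 5 found, none at 0 in either tissue) summed to between 92.9 and 136 CPM in backfat. This sum was highest in backfat 69, and in liver it was between 107 and 174 CPM. Its members went different ways. PDPN was at 31.4 CPM or more in backfat and at 3.01 CPM at most in liver. FLT4 and RELN were at 20.3 and 10.2 CPM at most in backfat, and higher than that in every liver. CCL21 and LYVE1 overlapped between the tissues, and LYVE1 is also in the list of liver sinusoidal endothelium. The part of lymphatic cells in the PROX1 level was not tested. A protein-coding gene overlaps PROX1 on the opposite strand.

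GATA4 (ENSSSCG00000022383, chr14:14858470-14938156, plus strand) and GATA6 (ENSSSCG00000003702, chr6:107282709-107314725, plus strand) are zinc finger factors of the endoderm, heart and liver that bind the same core. GATA4 had 1, 0, 88, 0 and 4 counts in backfat in the order of boars 65, 67, 69, 71 and 72, and its liver levels were 66.4, 30.9, 56.5, 55.8 and 56.3 CPM. Backfat 69 alone carried 88 of these backfat counts, at 1.48 CPM, while the livers of boars 69, 71 and 72 were nearly level and liver 67 was the lowest. WT1, a marker of mesothelium, had 29 counts in backfat 69 and 0 to 7 in the other backfat libraries. UPK1B, the other mesothelium marker found (2 of 5 found), went the other way, with 14 counts in backfat 69 and 15 to 21 in the others. The part of such cells, like that of the muscle and stellate markers, was not tested. GATA4 had a log2 fold change of -7.45 (SE 1.12, FDR = 0.00011), which went to -11.29 when backfat 69 was left out.

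GATA6 was the factor other than HHEX that every backfat library clearly expressed, with 4.20, 5.37, 8.21, 3.14 and 3.53 CPM in backfat and 28.1, 32.4, 35.2, 44.1 and 49.3 CPM in liver. Backfat 69 was again the highest backfat library, and every liver library lay above it. Its log2 fold change was -2.95 (SE 0.28, FDR = 2.46e-06). Scaled by library size alone, without TMM, it was -2.21, still past both thresholds. By that scaling the median over all genes shifted 0.72 towards backfat. The start of GATA6 overlaps a protein-coding gene of the opposite strand in the RefSeq annotation.

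HHEX (ENSSSCG00000036314, chr14:104194424-104199684, plus strand), a homeobox factor needed for the liver bud that is also made by endothelial and blood cells, differed least. Backfat levels were 11.5, 18.4, 17.6, 14.8 and 21.1 CPM, and liver levels were 54.0, 18.0, 30.6, 29.9 and 32.1 CPM, in the order of boars 65, 67, 69, 71 and 72. The ranges overlapped through liver 67, the lowest liver, while liver 65 was the highest of all. Backfat averaged 16.7 ± 3.64 CPM (SD, n = 5) and liver 32.9 ± 13.1 CPM (SD, n = 5), so that the log2 fold change was -0.98 (95% interval -1.51 to -0.45, FDR = 0.00715). HHEX therefore passed the FDR threshold but not the fold threshold and was not called. An FDR of at most 0.05 alone was reached by 55% of all genes tested. Scaled by library size alone, the log2 fold change of HHEX was -0.32 with an FDR of 0.363. Without liver 67 it was -1.17 (FDR = 0.000872), still below the fold threshold, and the other 4 livers, at 29.9 CPM or more, all lay above the backfat maximum of 21.1 CPM. Endothelial markers are given without TMM, unlike HHEX. Markers of blood vessel endothelium (4 of 5 found) summed to between 875 and 1660 CPM in backfat and to between 91.1 and 188 CPM in liver. Those of liver sinusoidal endothelium (4 of 5 found) summed to between 128 and 354 CPM and between 285 and 530 CPM. The sinusoidal sum in backfat was mostly STAB1, at 110 to 345 CPM, with LYVE1 at 8.97 to 29.2 CPM. CLEC4G and OIT3 were at 0.412 and 0.210 CPM at most in backfat, against 130 to 226 CPM and 4.01 to 38.0 CPM in liver. The part of these endothelial cells in the HHEX level was not tested.

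CREB3L3 (ENSSSCG00000013501, chr2:74578471-74588269, minus strand), also known as CREBH, was at 1.69, 0.488, 0.572, 0.144 and 0.240 CPM in backfat and at 267, 355, 316, 582 and 563 CPM in liver, in the order of boars 65, 67, 69, 71 and 72. Livers 71 and 72 formed the upper end, unlike for HNF4A, and the highest backfat library was backfat 65 rather than backfat 69. The log2 fold change was -9.33 (SE 0.71, FDR = 3.31e-07), and -10.15 without backfat 65. Backfat 65 also held the highest sum of skeletal muscle markers (2 of 5 found), 549 CPM against 7.30 to 172 CPM in the other backfat libraries, and the part of such tissue in its CREB3L3 level was not tested. Its hepatocyte markers, at 4.68 CPM, lay with those of boars 67, 71 and 72.

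Set against the mean of the liver libraries, the backfat levels of the 8 factors spanned several orders of magnitude. HHEX in single backfat libraries was at 35.0% to 64.0% of its liver mean, GATA6 at 8.30% to 21.7% and PROX1 at 0.316% to 3.43%. HNF4A was at 0.0352% to 0.292%, CREB3L3 at 0.0346% to 0.406%, ONECUT1 at 0% to 0.176% and ONECUT2 at 0%. Hepatocyte markers were summed after TMM here, like the factors. Their sum was at 0.00293% to 0.00378% of its liver mean in 4 of the backfat libraries. That was below HNF4A, CREB3L3 and PROX1 in every one of those libraries. In backfat 69 the marker sum was at 0.142%, which was higher than CREB3L3 there and lower than HNF4A, ONECUT1, PROX1 and GATA4, the last at 2.78%. Single markers in that library ran from 0.0973% (APOH) to 0.202% (TF). CREB3L3 at 0.137% and ONECUT1 at 0.176% lay within that range. What brought hepatocyte markers into backfat 69 was not tested.

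**Figure D2:**
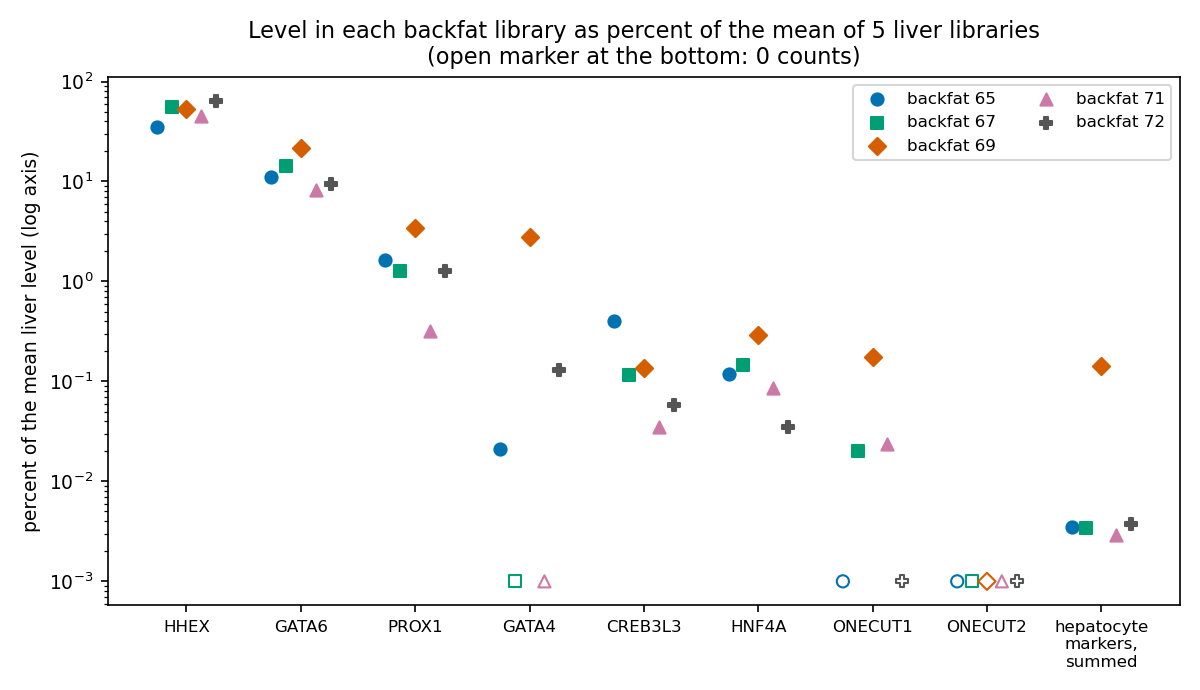
Level of each factor, and of 7 hepatocyte markers summed, in each backfat library as percent of the mean of 5 liver libraries, on a log axis with open markers at the bottom for 0 counts. HHEX and GATA6 sit at the top, ONECUT2 is at 0 in every library, and backfat 69 leads for GATA4 at 2.78% and for the marker sum at 0.142%.

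Levels of different genes can be compared only per length, so CPM were divided by the summed exon length in kilobases for the order of the factors. In liver the median levels per kilobase were 157 for CREB3L3, 78.9 for HNF4A, 16.9 for HHEX, 15.4 for ONECUT1, 11.2 for GATA6, 8.72 for GATA4, 5.82 for PROX1 and 0.354 for ONECUT2. CREB3L3 lay above HNF4A, and HNF4A above HHEX, in 5 of 5 livers with no overlap of their ranges, and ONECUT2 lay below PROX1 in the same way. The neighbours from HHEX to PROX1 overlapped each other, and GATA4 was above PROX1 in only 2 of 5 livers. In backfat the median levels per kilobase were 9.75 for HHEX, 1.33 for GATA6, 0.217 for CREB3L3, 0.0967 for PROX1 and 0.0947 for HNF4A, with ONECUT1, GATA4 and ONECUT2 at 0.00268 or below.

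Among the 5 livers the factors did not move as 1 block. ONECUT2, PROX1 and HHEX varied most, with coefficients of variation of 71.2%, 47.3% and 39.7%, while GATA6, GATA4 and HNF4A varied least, at 23.0%, 24.8% and 25.0%. The median over 13308 genes with a mean liver level of at least 1 CPM was 29.0%, with quartiles of 18.8% and 43.1%, so that ONECUT2 and PROX1 lay above the upper quartile. HNF4A, GATA4 and HHEX were all lowest in liver 67. GATA6 and CREB3L3 were lowest in liver 65, where PROX1, GATA4 and HHEX were highest, and ONECUT1 and ONECUT2 were highest in liver 69 together with HNF4A. Hepatocyte markers summed to 20906 CPM in liver 67, 64721 CPM in liver 71, 86291 CPM in liver 72, 99056 CPM in liver 65 and 104490 CPM in liver 69. ONECUT1 and CREB3L3 in liver 67 were at or near their liver medians, with log2 deviations of 0.00 each, beside -0.64 for HNF4A, -0.87 for GATA4 and -0.76 for HHEX. These are descriptions of 5 libraries, and no test was made of them.

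**Figure D3:**
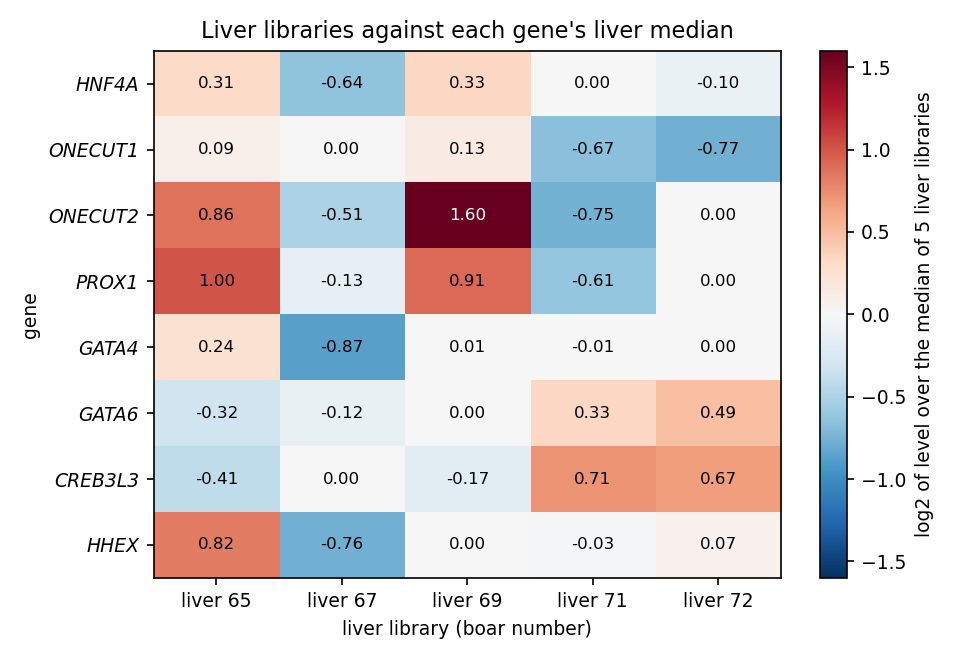
Log2 of each liver library's level over the gene's median in 5 livers, with libraries in columns, factors in rows, red for above and blue for below the median. Liver 67 is low for HNF4A (-0.64), GATA4 (-0.87) and HHEX (-0.76), and livers 71 and 72 are high for CREB3L3 (0.71 and 0.67) where they are low for ONECUT1 (-0.67 and -0.77).

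The share of 1 gene in the summed level of related genes was compared between the tissues. A share within a library needs no scaling between libraries, and shares were taken per length and compared by a two-sided exact permutation test with Benjamini-Hochberg adjustment over 4 shares. GATA6 made up 99.9%, 100%, 91.9%, 100% and 99.1% of GATA4 and GATA6 together in the backfat of boars 65, 67, 69, 71 and 72, and 46.4%, 68.2%, 56.1%, 61.8% and 64.2% in their livers. The ranges of this pair's shares did not overlap, and GATA6 held the larger part of the pair in every library but liver 65. The means of 98.2% ± 3.52 (SD, n = 5) and 59.4% ± 8.46 (SD, n = 5) differed by 38.8 points, higher in backfat in 5 of 5 boars (exact permutation p = 0.00794, the smallest that 5 against 5 libraries allow, adjusted p = 0.0106). An exact sign-flip test over the 5 pairs of libraries from 1 boar reached p = 0.0625, its lowest possible value. GATA4 passed the filter on low counts through liver alone. The higher GATA6 share in backfat therefore restates the tissue difference of GATA4, and its p-values are no separate support. The pair is not the whole family: GATA2 per kilobase, at 2.81, 3.39, 4.83, 4.09 and 3.75 CPM, lay above GATA6, at 1.33, 1.70, 2.61, 0.996 and 1.12 CPM, in each backfat library, and GATA3 was at 0.673 to 1.38 CPM there.

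CREB3L3 made up 1.34%, 0.482%, 0.620%, 0.112% and 0.175% of the CREB3 family (CREB3, CREB3L1, CREB3L2, CREB3L3 and CREB3L4) in backfat and 77.5%, 89.1%, 79.8%, 89.6% and 88.5% in liver. It was thus a minor member in backfat and the main member in liver, with means of 0.546% ± 0.492 (SD, n = 5) and 84.9% ± 5.79 (SD, n = 5). The difference was 84.3 points (exact permutation p = 0.00794, adjusted p = 0.0106, and exact sign-flip p = 0.0625 when paired by boar). CREB3L3 also passed the filter through liver alone, so this share restates its tissue difference, and these p-values are no separate support. HNF4A made up 91.9% ± 3.77 (SD, n = 5) of HNF4A and HNF4G in backfat and 98.5% ± 0.376 (SD, n = 5) in liver (exact permutation p = 0.00794, adjusted p = 0.0106, and exact sign-flip p = 0.0625 when paired), but this rested on 1 to 3 HNF4G reads per backfat library, against 101 to 329 per liver library. ONECUT2 made up 3.46% ± 1.73 (SD, n = 5) of ONECUT1 and ONECUT2 in liver. In backfat it had 0 of 10 reads over the 3 libraries with any. That allows up to 30% of the reads, not corrected for length, where ONECUT2 had 2.66% of the reads in liver. The exact permutation p of 0.0357 (adjusted p = 0.0357, and 0.0571 without any 1 of the liver libraries) comes with no usable depth in backfat.

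**Figure D4:**
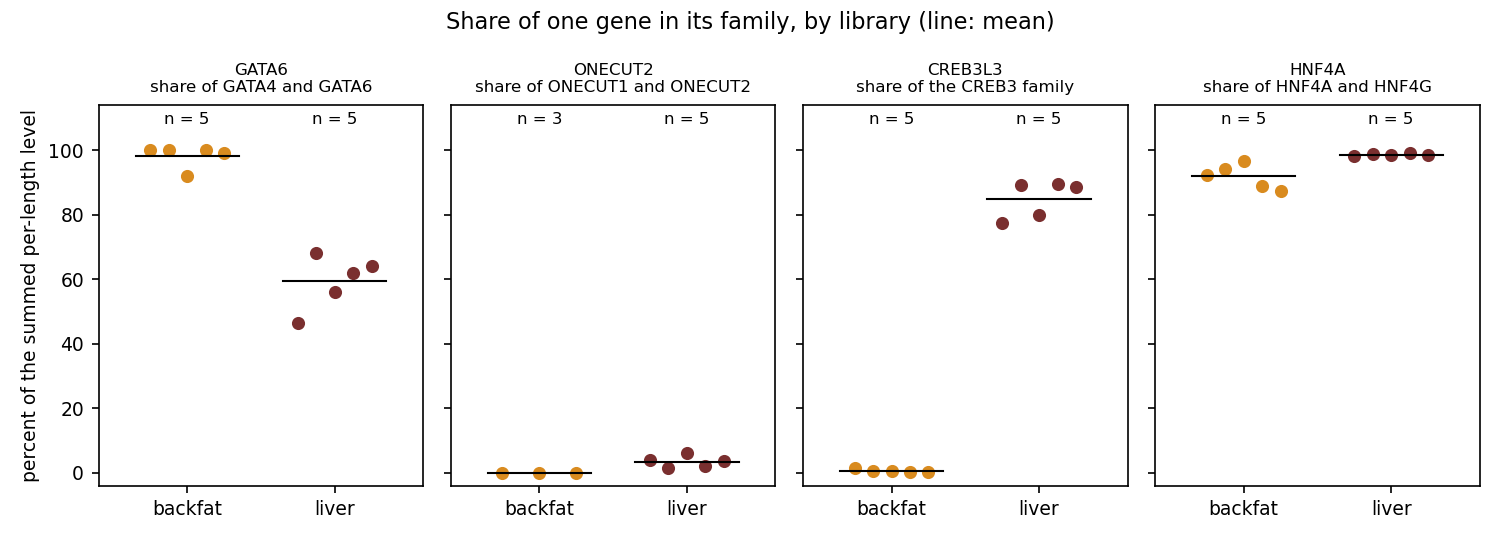
Share of 1 gene in the summed per-length level of its pair or group of related genes, in percent, 1 point per library, with the mean as a line and the number of libraries above each group. Of GATA4 and GATA6 together, GATA6 is at 91.9% or more in backfat and at 68.2% or less in liver, and CREB3L3 is at 1.34% at most in backfat and at 77.5% at least in liver.

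Of 11 paralogues outside the 8 factors, 8 were tested, and HNF4G was called higher in liver and CREB3L1 higher in backfat. Over all genes tested 22.3% were called in either direction. HNF4G, a close relative of HNF4A known from gut epithelium, was at 2.73 to 8.20 CPM in liver and at 0.0360 CPM at most in backfat, a log2 fold change of -7.32 (FDR = 7.65e-08). It had 1 to 3 reads per backfat library and passed the filter through liver alone, so that a difference was bound to appear. CREB3L1, a factor of collagen secretion, went the other way from CREB3L3, with 59.4 to 116 CPM in backfat, 10.8 to 24.7 CPM in liver and a log2 fold change of 2.14 (FDR = 1.99e-05), which was 1.98 and below the threshold without liver 69 and was not called by glmTreat, a test against the threshold itself. GATA2, a factor of blood cells and endothelium, was at 9.94 to 17.1 CPM in backfat and 1.53 to 8.10 CPM in liver, and its log2 fold change of 1.93 (FDR = 0.00209) lay below the threshold. It was called at 2.46 without liver 67, at 2.02 without backfat 65, at 2.70 by library size alone, at 2.22 by limma-voom, at 2.01 without the filter on low counts and at 2.20 with the boar as a block. CREB3, CREB3L2, CREB3L4, GATA1 and GATA3 were not called either, with log2 fold changes between -1.18 and 0.25. GATA1 and GATA3 turned from -1.18 and -0.36 to 0.15 and 0.55 when liver 67 was left out. ONECUT3 had 0 counts in all 10 libraries, and PROX2 and GATA5 did not pass the filter, GATA5 with 2 to 50 counts in the livers and 0 or 1 in backfat. DESeq2 and the fit without the filter tested 10 paralogues and called 3 and 4 of them, each with 2 higher in liver. Over all 26315 genes these fits called 4903 and 5247, with 2634 and 2729 higher in liver. The median of the 8 tested was -0.33, that of the 8 factors -8.39 and that of all genes tested 0.00.

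Of 15 other transcription factors of the liver network, 10 were called higher in liver and none higher in backfat, beside the 11.2% of all genes tested that were higher in liver. Of the 15, 6 passed the filter through liver alone, so that a difference was bound to appear. The forkhead pioneer factors FOXA1, FOXA2 and FOXA3 were among them, and FOXA2 had 0 counts in every backfat library beside 16.6 to 48.7 CPM in liver. The bile acid receptor NR1H4 was too (FDR = 1.27e-09), on 2 backfat counts, both in backfat 69, and 15213 in liver, a ratio of 12920 with an exact 95% counting interval of 3577 to 106700. PPARA, the nuclear receptor of fatty acid oxidation, was called with overlapping ranges at a log2 fold change of -2.08 (FDR = 0.00197). It was below the threshold at -1.99 without backfat 69, -1.95 without backfat 72, -1.93 without liver 65, -1.71 without liver 69, -1.41 by library size alone, -1.89 both by limma-voom and with the replicate block. It was not called by glmTreat either. The factors that were not called are also used outside liver: RXRA, the shared partner of nuclear receptors, at -1.33 (FDR = 8.62e-05, every liver library above every backfat library), TBX3 at -0.64, CEBPB at -0.41, XBP1 at 0.00 and CEBPA, which also drives adipocyte differentiation, at 1.36 (FDR = 0.0195), called towards backfat at 2.03 by library size alone. FOXA1, at -10.21, had 8 of its 10 backfat counts in backfat 69, and without that library its ratio of liver to backfat was 5550 with a counting interval of 1536 to 45830.

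Cofactors and processing enzymes of the 8 factors were the last regulators listed. Of 7 listed 6 were found and tested, and 2 were called, both higher in liver, where 22.3% of all genes tested were called in either direction and 11.2% higher in liver. ZFPM1, a zinc finger cofactor of GATA proteins, had 4.39 to 8.68 CPM in backfat and 53.4 to 152 CPM in liver, a log2 fold change of -3.59 (FDR = 3.39e-06), with livers 71 and 72 the highest. PPARGC1A, the coactivator of HNF4A in gluconeogenesis, had 0.259 to 0.609 CPM in backfat and 13.4 to 32.7 CPM in liver, a log2 fold change of -5.47 (FDR = 1.03e-07), with liver 67 the highest. ZFPM2 at 0.89, MBTPS1 (the site-1 protease that cleaves CREB3L3) at 0.38, KDM1A at 0.30 and HDAC3 at 0.28 were not called. Of these 4 only ZFPM2 passed the FDR threshold (FDR = 0.0173).

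Genes known as targets of HNF4A were all called where tested, 14 of 14, each higher in liver, beside the 11.2% of all genes tested. Of the 14, 11 passed the filter through liver alone, so that for them a difference was bound to appear. They include the apolipoprotein genes APOA2 (-11.87) and APOB (-12.25), the coagulation factor F9 (-11.62), the urea cycle enzyme OTC (-12.45) and the microsomal triglyceride transfer protein MTTP (-10.57, FDR = 1.79e-09). The smallest change was that of PCK1, the gluconeogenic enzyme that adipose tissue also uses for glyceroneogenesis, at 52.9 to 282 CPM in backfat and 185 to 1183 CPM in liver, with a log2 fold change of -2.03 (FDR = 0.00639). PCK1 was below the threshold at -1.86 without backfat 71, -1.80 without backfat 72, -1.93 without liver 71, -1.82 without liver 72, -1.97 without the filter on low counts and -1.21 by library size alone, and glmTreat did not call it. Without backfat 69 the changes of APOA2, APOB and F9 went to -15.37, -16.75 and -13.16, and OTC was left with 1 backfat count and a ratio of 112600 (counting interval 20200 to 4447000). APOA1 was at 167 to 482 CPM in backfat, where HNF4A was at 1.28 CPM at most. SERPINA1 has near-identical copies in the pig, so its counts are uncertain. CYP8B1 was listed and not matched.

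For CREB3L3, 5 of 5 known targets that were tested were called higher in liver, beside the 11.2% of all genes tested. Of the 5, 3 passed the filter through liver alone, so that for them a difference was bound to appear. APOC2 and APOA5 were listed and not matched. APOA4, an apolipoprotein of chylomicrons, had 1 backfat count, in backfat 69, and 26.9, 138, 37.9, 124 and 141 CPM in the livers of boars 65, 67, 69, 71 and 72. Its ratio of liver to backfat was 29010 with an exact 95% counting interval of 5205 to 1146000 (FDR = 5.36e-08). FGF21, the fasting hormone, was at 2.42, 1.88, 2.59, 1.19 and 0.823 CPM in backfat and 19.9, 6.62, 15.2, 6.89 and 8.49 CPM in liver, in the order of boars 65, 67, 69, 71 and 72, a log2 fold change of -2.68 (FDR = 0.000139), which glmTreat did not call. Livers 65 and 69, the highest for FGF21, were the lowest for APOA4 and for CREB3L3. HAMP, the iron hormone hepcidin, had a log2 fold change of -4.85, and the acute phase genes APCS and CRP had -11.70 (-12.45 without backfat 69) and -8.45. The median over the 5 was -8.45, and over the 14 HNF4A targets -11.10.

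**Figure D5:**
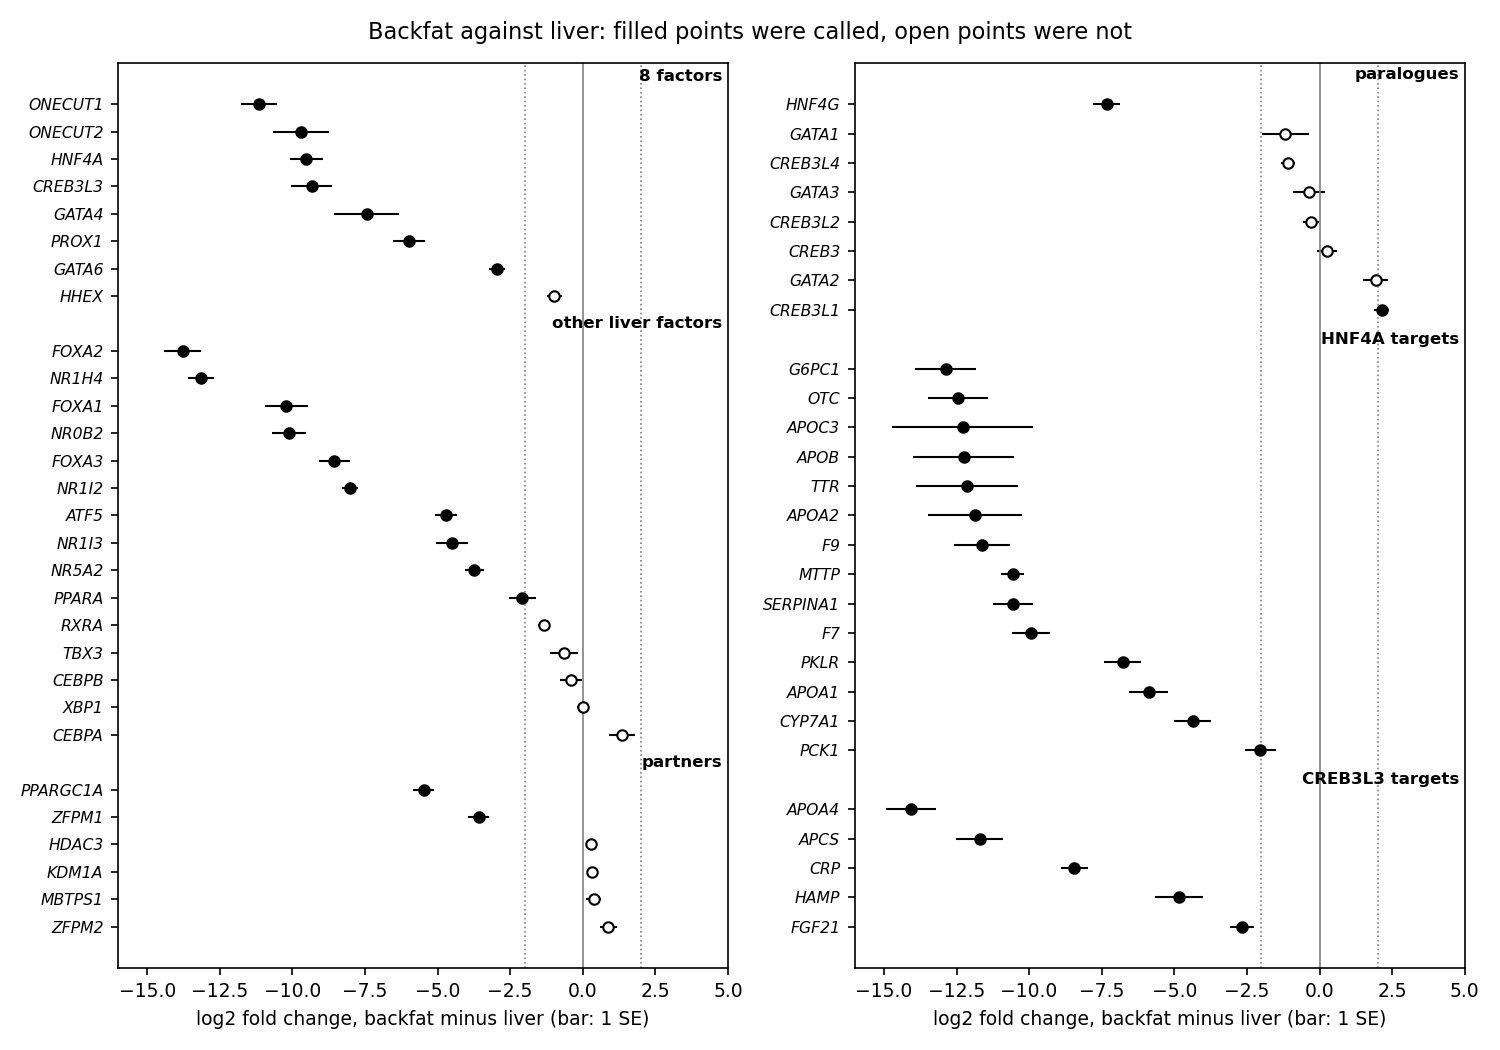
Log2 fold change of backfat minus liver for the 8 factors and the lists beside them, with bars of 1 standard error, filled points for genes called by edgeR's quasi-likelihood test at both thresholds and dotted lines at a log2 fold change of 2 in either direction. The points of ONECUT2 and FOXA2, at 0 counts in backfat, and of NR1H4, SERPINA1 and APOA4, at 1 or 2, depend on the prior count of the fit. HHEX is the open point among the 8 at -0.98, and CREB3L1 is the filled point to the right at 2.14.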

How the data were processed

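RNA-seq of backfat and liver from 5 boars was used, 5 libraries per tissue. The authors checked reads with FastQC, trimmed them with Trimmomatic, aligned them with HISAT2 to Sscrofa11.1 and counted read pairs on exons with featureCounts 2.0.1 (Ensembl release 99), without strand and without reads that map to several places or genes. The deposited values are raw counts per gene, not normalised, between 43820042 and 61772737 per library. The deposited methylation calls carry no genomic position and were not used.

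The 8 factors and the lists beside them were chosen with earlier results of these data known, and every gene of a list could be named. Some genes of the list of other liver factors are not reported here. Symbols were matched by Ensembl identifier (15029 of 31907 genes have one). Counts were filtered by filterByExpr, normalised by TMM and tested in R 4.3.3 with edgeR 4.0.16 (glmQLFit and glmQLFTest on tissue alone), with Benjamini-Hochberg adjustment over 16275 genes. FDR stands for this adjusted p, and standard errors come from the fold change and the F statistic. Calls needed an FDR no higher than 0.05 and at least 2 on the log2 scale in either direction. A positive log2 fold change means higher in backfat. Family shares were compared over all 252 arrangements of the libraries in Python 3.11.15. Alternatives were DESeq2 1.42.0, limma 3.58.1 (voom), glmTreat, other scalings and filters, removal of mitochondrial counts, a replicate block and leaving out each library. Leaving out backfat 69 together with liver 67 was chosen after seeing the data. Fits were tested on simulated data.

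Boar numbers come from the column names, and they were taken to pair libraries of the same animal. Deviations of the paired libraries from their tissue means correlated at 0.049 to 0.238, and 4 of 5 animals matched their own best. The exception was boar 69, which had the lowest correlation, 0.049. The sample labels number replicates otherwise, so that a library is tied to a boar by its column name alone. P-values measure the spread between 5 animals per tissue. Precision at low counts is set by counting error, and 3 counts were taken as the limit behind a count of 0.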

Additional observations from a re-analysis of the deposited data

Results flagged for a closer look

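In 5 of 27 groups of 5 libraries, the highest or lowest library lay over 0.71 of the group's range from its nearest neighbour. Chance alone would set apart about 1 in 20 groups if they were independent and their values normally distributed. Levels near 0 counts are not so distributed, and the groups share libraries and genes. The 5 groups can therefore not be weighed against chance. In backfat 69, GATA4 was at 1.48 CPM against 0.0686 CPM at most in the other backfat libraries, and ONECUT1 was at 0.135 CPM against 0.0180 CPM at most. The GATA6 share of GATA4 and GATA6 was 91.9% in backfat 69 and between 99.1% and 100% in the others. The same library held 163.4 CPM of hepatocyte markers, against 3.39 to 4.68 CPM. CREB3L3 was at 1.69 CPM in backfat 65 and at 0.572 CPM at most in the other backfat libraries. The causes were not tested.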

How the results depend on the processing

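No direction of the 8 factors, list counts or shares reversed, while GATA1 and GATA3, never called, changed sign without liver 67. The calls of all 8 factors stayed as they were in 154 of 154 alternative values, with log2 fold changes of HNF4A between -10.12 and -8.83, of CREB3L3 between -10.15 and -8.51, of GATA6 between -3.27 and -2.21 and of HHEX between -1.17 and -0.32. Under a minimum of 10 counts per library, fewer genes of the lists were tested, and the called genes were 1 of 2 of the 8 factors, 4 of 9 other factors, 1 of 6 paralogues, 3 of 3 HNF4A targets and 2 of 2 CREB3L3 targets. Over all genes, that filter called 1852 of 13026, with 981 higher in liver and 871 higher in backfat. Paralogues called were 1 of 8 by glmTreat, beside 2413 of all 16275 genes, and 4 of 10 without the filter on low counts, beside 5247 of 26315. Scaling by library size alone called 2874 genes towards backfat and 1340 towards liver, or 31.8% towards liver against 50.1% with TMM. Leaving out each library gave 1 to 3 paralogues called (1 without liver 69), and shares that differed by 35.59 to 41.04 points for GATA6, -86.19 to -83.17 for CREB3L3, -7.81 to -5.49 for HNF4A and -3.93 to -2.83 for ONECUT2, the last with an adjusted p of 0.0571 without any 1 liver. Without both backfat 69 and liver 67 the ONECUT2 difference was -3.93 points (adjusted p = 0.0667). With the replicate block, pairing by boar, the sign-flip tests of the shares could not pass: the differences were 38.82 points for GATA6, -84.34 for CREB3L3, -6.61 for HNF4A (adjusted p = 0.0833 each) and -3.25 over 3 pairs for ONECUT2 (adjusted p = 0.25). In edgeR the block kept all calls of the 8 factors and, on the lists, changed those of PPARA (-1.89, below the threshold) and GATA2 (2.20, called). ONECUT1, ONECUT2 and GATA4 in backfat and HNF4G shares there are limited by depth.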

Other observations

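For each factor, the genes with the most similar pattern over the 10 libraries were those with the smallest root-mean-square difference of centred log2 CPM among 11176 genes with a symbol and a mean liver level of at least 1 CPM. The nearest to HNF4A were F12, a coagulation factor (0.41), and CLEC4G (0.44), and those to ONECUT1 were ABCG8, a sterol transporter (0.39), and C4BPB (0.43). ONECUT2 lay nearest to TINAG (0.34) and ATP2B3 (0.37), and PROX1 to FAM135B (0.50) and STK32B (0.58). GATA4 had no gene as close, with ETNK2 at 0.86 and FADS6 at 0.90, and CREB3L3 followed with DNAJC22 at 0.69 and EPS8L2 at 0.72. GATA6 lay nearest to COL18A1 (0.26) and FTL (0.29), and HHEX to AP3S2 (0.20) and KICS2 (0.27). These are descriptions across 10 libraries of 2 tissues.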
